A study of Mus musculus with 9 samples.

Results

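Plasma cells of kFRA mice were compared with plasma cells of DH-LMP2A mice, gene by gene, across genes outside the immunoglobulin heavy-chain, kappa and lambda segments. The comparison rests on the libraries whose labels give these genotypes, 3 kFRA and 3 DH-LMP2A, or 6 of the 9 libraries of the series, and the 3 wild-type (WT) libraries are given as a reference level. Each library came from the CD138-positive cells of 1 spleen, taken with magnetic beads from a 3-month-old mouse that had not been immunized. All mice had a mixed C57/BL6x129/SVxBALB/c background. The labels do not describe the alleles, do not say whether kFRA mice also carry the DH-LMP2A allele, and do not say which strain each chromosome segment of a mouse came from.

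Plasma cells are the antibody-secreting end stage of the B cell lineage and carry an expanded endoplasmic reticulum. An LMP2A gene placed in the heavy-chain locus, as in DH-LMP2A mice, supplies the survival signal that a B cell receptor normally gives, so B cells mature without a heavy chain. The kFRA light chain comes from light chain deposition disease, in which a monoclonal light chain is secreted free of heavy chain and settles in tissues.

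Both genotypes held little heavy chain and differed in kappa counts. In CPM, the count scaled to a common library total and corrected by library factors, Ighm stood at 9008, 6981 and 10469 in the kFRA libraries, at 9856, 9365 and 10028 in the DH-LMP2A libraries, and between 154254 and 184338 in WT. Igkc stood at 431979, 216028 and 472266 CPM in kFRA and at 112731, 114477 and 153369 CPM in DH-LMP2A, with no overlap. Total counts ran from 15449026 to 21558128 over the 9 libraries. Plasma cell markers were high on both sides: Sdc1, which encodes CD138, averaged 611 ± 93.4 CPM (SD, n = 3) in kFRA and 576 ± 94.4 in DH-LMP2A, and Xbp1, a driver of the secretory programme, averaged 2073 ± 237 and 2249 ± 334. Prdm1, the master regulator of the plasma cell stage, read 236, 200 and 265 CPM in kFRA and 382, 370 and 354 in DH-LMP2A, and did not pass the test (log2 fold change −0.66, adjusted p = 0.12 by edgeR's quasi-likelihood test).

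Several features of the libraries moved with genotype or set 1 library apart. The mean log2 CPM of 65 marker genes of T, NK, myeloid, granulocyte, erythroid and megakaryocyte cells was 1.79, 2.43 and 2.72 in kFRA and 2.97, 3.15 and 3.19 in DH-LMP2A, without overlap. Xist was high in kFRA replicate 2 and DH-LMP2A replicates 1 and 2 and low in the other 3, so the sexes are unequally split. Among called genes, kFRA replicate 2 was the kFRA library nearest to DH-LMP2A for 156 of 243 genes higher in kFRA (64.2%) and 195 of 356 lower (54.8%). Without it 3184 genes were called in place of 599. The part of sex and of other cells in the results below was not tested, and in bulk samples fewer cells of a type and less RNA per cell cannot be told apart.

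Of 13940 genes tested outside the immunoglobulin segments, 599 differed between kFRA and DH-LMP2A at an adjusted p under 0.05 (4.3%), 243 of them higher in kFRA (1.74%) and 356 lower (2.55%). The median log2 fold change was 1.45 among the genes called higher, −1.38 among those called lower and 0 over all genes tested. At least 2-fold differences were seen for 165 genes called higher and 252 called lower. The libraries of the 2 genotypes did not overlap for 598 of the 599, against 25.1% of all genes tested. Protein-coding genes made up 475 of the calls, which is 4.04% of the coding genes tested. The call survived leaving out each of the 6 libraries in turn for 195 genes, 77 higher and 118 lower. With a covariate for other-cell markers 72 of the 599 remained.

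**Figure D1:**
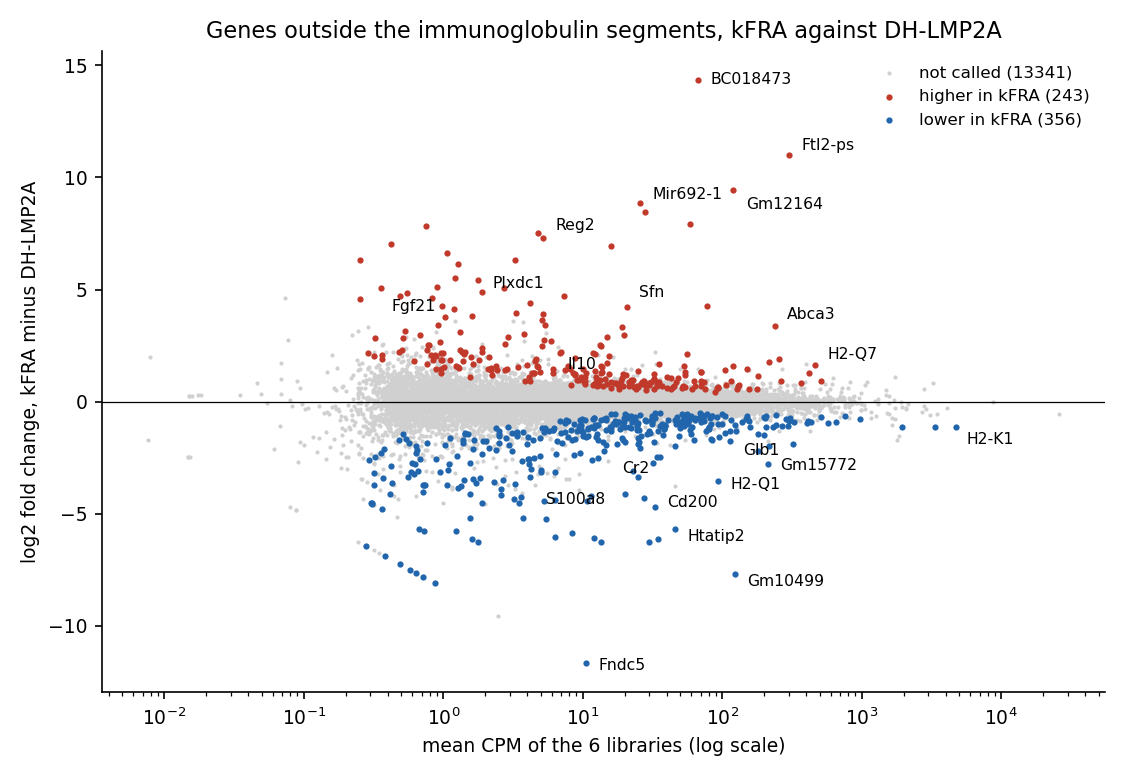
Each point is a gene outside the immunoglobulin segments, with the mean CPM of the 6 libraries on a log axis and the log2 fold change, kFRA minus DH-LMP2A, on the vertical axis. Red points were called higher in kFRA (243), blue points lower (356), grey points were not called, and the widest differences belong to pseudogenes and miRNA hairpins as well as to coding genes such as Fndc5, Htatip2, Cd200, Sfn and Abca3.

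The 15 highest fold changes described here are of called genes without overlap and with a mean of at least 5 CPM. Pseudogenes, antisense and predicted genes are given apart, and the 15 include miRNA hairpins and a processed transcript beside coding genes. Abca3, which encodes a lipid transporter of lysosome-related organelles, had the highest level in kFRA among the 15. Abca3 read 384, 505 and 412 CPM in kFRA and 26.9, 38.6 and 58.6 in DH-LMP2A, with WT at 34.1 ± 7.09 (SD, n = 3). Only the kFRA libraries were high, and the log2 fold change was 3.39 (SE 0.299, adjusted p = 0.000118). Sfn, the adaptor protein 14-3-3 sigma, read 38.3, 35.6 and 43.8 CPM in kFRA and 1.65, 1.95 and 2.7 in DH-LMP2A. Here WT, at 39.1 ± 13.4, lay with kFRA, and DH-LMP2A was the genotype apart (log2 fold change 4.22, SE 0.297, adjusted p = 2.07e-05). Plxdc1, a transmembrane protein with a plexin-like domain, read 9.37, 21.9 and 10.8 CPM in kFRA against 0.635, 0.418 and 0.549 in DH-LMP2A and 1.24 in WT. All 3 of these calls held in every fit that left out a library and in the fits with a covariate.

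The other coding genes among the highest 15 fold changes encode proteins of varied roles. Serpinh1, a collagen chaperone of the endoplasmic reticulum, read 12.9, 5.57 and 9.28 CPM in kFRA and 1.19, 1.67 and 1.19 in DH-LMP2A (log2 fold change 2.77, adjusted p = 0.00512). Hspb6, a small heat shock protein, read 17.3, 15.8 and 26.7 CPM against 4.61, 4.13 and 4.81 (2.14, adjusted p = 0.00034), although its exons overlap those of neighbouring genes and the strand setting of the counting is not given in the sources used here. Both were lower in WT than in kFRA, at 2.22 and 6.23 CPM. Ache, which breaks down acetylcholine, averaged 11.6 ± 3.05 CPM in kFRA and 2.5 ± 0.164 in DH-LMP2A. Arhgap31, which switches off the GTPases Rac and Cdc42, averaged 8.61 ± 2.1 and 1.51 ± 0.373, with WT above both at 19.8. Ntn5, a netrin, averaged 10.3 ± 0.62 and 1.55 ± 0.486.

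In 4 of the 15 the kFRA libraries were uneven. Mt2, a metal-binding metallothionein, read 72.2 CPM in kFRA replicate 3 and 15.1 and 16.7 in the others, against 5.08, 4.5 and 0.824 in DH-LMP2A. Slc7a2, a transporter of cationic amino acids, read 20.1 in kFRA replicate 2 and 4.86 and 8.47 in the others, against 2.88, 2.51 and 2.11. Reg2, a secreted protein of the pancreas, read 28.6 CPM in kFRA replicate 2, 0.958 and 1.13 in the other kFRA libraries, and 0.0423, 0.0464 and 0.0915 in DH-LMP2A, which is under the value of 3 counts. That kFRA library also held the highest summed level of 12 pancreatic acinar markers, 3175 CPM, against 93.4 and 404 in the other kFRA libraries and 375, 938 and 1726 in DH-LMP2A replicates 1, 2 and 3. Reg2 had the same rank order as the acinar sum within each genotype, though in DH-LMP2A only among values under 3 counts, and the part of acinar RNA was not tested. Il10, an anti-inflammatory cytokine that some plasma cells make, read 26.2 and 36.1 CPM in kFRA replicates 1 and 3 but 6.8 in replicate 2, against 4.27, 4.32 and 3.66 in DH-LMP2A. The Il10 groups did not overlap, yet the call (log2 fold change 2.49, SE 0.58, adjusted p = 0.0417) held in only 1 of the 6 fits that left out a library. The corresponding number was 2 for Mt2 and Slc7a2 and 3 for Reg2.

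Fgf21, a secreted hormone induced by nutrient stress, fell below the level set for naming the widest changes and was picked out after its values were seen. It read 1.78, 1.33 and 2.7 CPM in kFRA, 0.169, 0.0928 and 0.137 in DH-LMP2A and 0.352 ± 0.0813 in WT (log2 fold change 3.78, SE 0.429, adjusted p = 0.000722). The DH-LMP2A values lie near what 3 counts are worth in those libraries, 0.127 to 0.139 CPM. Hid1, a protein of the trans-Golgi that helps form secretory granules, was chosen the same way. It read 273, 133 and 257 CPM in kFRA and 91.5, 72.6 and 78.5 in DH-LMP2A, with kFRA replicate 2 again nearest (1.45, adjusted p = 0.0219). Of 3 further genes chosen in this way, Hvcn1, the proton channel of B cells, averaged 76.5 ± 17.7 CPM in kFRA and 30.9 ± 6.46 in DH-LMP2A, both far under WT at 308 ± 53.7. The kinase gene Pim1 averaged 471 ± 72.1 and 261 ± 20.8 CPM, and Glo1, which detoxifies methylglyoxal, 35.9 ± 5 and 14.1 ± 1.97.

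Several coding genes were nearly silent in kFRA. Fndc5, a membrane protein from which irisin is cut, had no count in any kFRA library and read 19.7, 20.3 and 23.5 CPM in DH-LMP2A, at least 103-fold higher than what 3 counts are worth in a kFRA library, while WT stood at 0.173 ± 0.158. Htatip2, an oxidoreductase-like protein, read 1.16, 2.52 and 1.44 CPM in kFRA, 89.9, 80.3 and 97.8 in DH-LMP2A and 45 ± 6.82 in WT (log2 fold change −5.67, SE 0.278, adjusted p = 1.72e-06). Trim12a, a member of the TRIM5 family of antiviral factors, read 0.41, 0.476 and 0.126 CPM against 14.2, 18.9 and 37.8, with WT at 43.2 ± 14.4. For Htatip2 and Trim12a the kFRA libraries were thus the ones apart, and for Fndc5 the DH-LMP2A libraries were. Trim12a has related neighbours and overlaps Trim34b, so its value is uncertain.

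Cd200, a surface glycoprotein that binds an inhibitory receptor on myeloid cells, read 1.23, 1.76 and 4.2 CPM in kFRA and 56.5, 57.7 and 75.2 in DH-LMP2A, with WT between at 13.9 ± 4.83 (log2 fold change −4.72, SE 0.437, adjusted p = 0.000163). Pianp, a ligand of an inhibitory receptor of myeloid cells, read 0.889, 0.761 and 1.19 CPM against 20.7, 19.4 and 21.4 (−4.43). Postn, a matrix protein, averaged 1.13 ± 0.495 against 21.7 ± 9.26 CPM, and Lhfp, a membrane protein, 0.275 ± 0.0379 against 10.6 ± 6.23. WT was at or below the kFRA level for Pianp (0.504), Postn (0.729) and near it for Lhfp (0.357), so DH-LMP2A stood apart. The same was seen for the neuronal zinc finger gene Zfp365 (1.27 CPM in kFRA, 11.4 in DH-LMP2A, WT at 0.178), the complement protease gene Masp2 (1.05, 9.04 and 0.356) and Prelid2 (0.578, 12.1 and 0.36). Ctrc, a pancreatic protease, read 0, 0.476 and 0 CPM in kFRA and 5.25, 8.4 and 23.5 in DH-LMP2A. Its exons overlap Casp9 and Cela2a. Within DH-LMP2A Ctrc ranked as the acinar sum did (375, 938 and 1726 CPM), and kFRA replicate 2, with the highest sum (3175), was the kFRA library with Ctrc counts. The part of acinar RNA in the Ctrc difference was not tested.

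**Figure D2:**
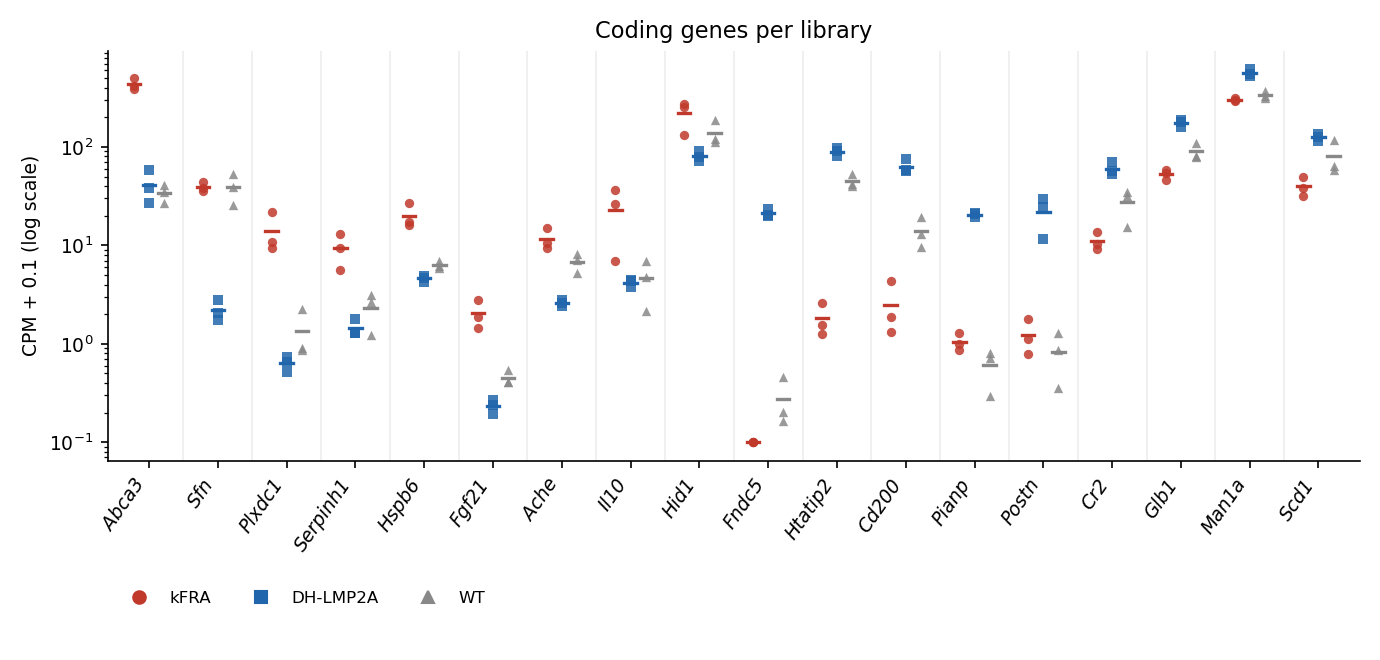
CPM plus 0.1 on a log axis for 18 coding genes described in the text, with each library a point, the group mean a bar, kFRA in red circles, DH-LMP2A in blue squares and WT in grey triangles. Abca3, Plxdc1 and Fgf21 are high in kFRA alone, Fndc5, Pianp and Postn are high in DH-LMP2A alone, and Sfn is low in DH-LMP2A alone.

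Genes of plasma cell identity that were called were lower in kFRA. The median log2 fold change of a list of plasma cell regulators was −0.36 against 0 over all genes. On that list 4 of 22 tested members were called, all lower in kFRA (18.2%, against 4.3% of all genes). They were Pou2af1, a coactivator of immunoglobulin transcription (595 ± 63.5 CPM in kFRA, 925 ± 39.3 in DH-LMP2A), Cd28, a survival receptor of long-lived plasma cells (47.2 ± 2.58 and 73 ± 6.39), Epcam (39.6 ± 15.4 and 130 ± 37.8) and Ly6k (12.2 ± 4.57 and 37.5 ± 8.91). Jchain, which joins polymeric antibodies, read 23250, 14680 and 25430 CPM against 27240, 27010 and 38650 and was not called (log2 fold change −0.55, adjusted p = 0.343). None of the 4 calls held in all 6 fits that left out a library, and Pou2af1 held in 0.

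On the list of homing and adhesion genes 3 of 25 were lower in kFRA and 1 higher (16%, against 4.3% of all genes). The list's median was −0.21. S1pr1, the receptor for the lipid that guides cells out of lymphoid organs, read 8.07, 10.2 and 8.78 against 22, 26.5 and 45.1 CPM (log2 fold change −1.79, SE 0.298, adjusted p = 0.00831). Every kFRA library lay below every DH-LMP2A library, and the call held in 5 of 6 fits that left out a library. Icam2 was lower by less (41.1 ± 2.29 against 69.7 ± 11.2 CPM). Ly6a, also called Sca-1, was higher, at 752, 345 and 700 CPM against 277, 269 and 188, a call that held in 1 of those 6 fits. Cxcr4, the receptor that retains plasma cells in bone marrow, averaged 189 ± 22.8 and 194 ± 13.1 CPM.

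Of 32 tested genes of B cell identity 28 had a negative fold change (median −0.68). Of the 32, 3 were called, all lower in kFRA (9.38%, against 4.3% of all genes). Cr2, the complement receptor CD21, read 10.1, 13.7 and 9.1 CPM in kFRA and 57.5, 52.6 and 70.2 in DH-LMP2A, with WT between at 27.3 ± 10.5 (log2 fold change −2.45, SE 0.303, adjusted p = 0.00126). Ms4a1, which encodes CD20, averaged 57.1 ± 15.9 against 151 ± 25.1 CPM, and Siglecg, an inhibitory lectin of B cells, 15.5 ± 4.22 against 33.3 ± 8.02. Of these Cr2 alone held in all 6 fits that left out a library. The B cell factor Pax5 read 2.94, 9.8 and 8.59 CPM against 13.9, 12.9 and 43.4 and was not called (adjusted p = 0.14).

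Class II genes of the major histocompatibility complex present antigen on B cells and are shut down in mature plasma cells. Of 14 tested members of their list 4 were called, all lower in kFRA (28.6%, against 4.3% of all genes, median −0.6). H2-Eb1, a beta chain, read 256, 279 and 294 CPM in kFRA and 424, 561 and 635 in DH-LMP2A (log2 fold change −0.97, SE 0.196, adjusted p = 0.0229), with WT at 510 ± 85.1. H2-Eb2 averaged 9.37 ± 2.2 against 28.9 ± 2.75 CPM. H2-DMa and H2-DMb2, which load peptide on class II, averaged 44.9 ± 3.72 against 69.4 ± 10.4 and 11.5 ± 3.7 against 39.4 ± 13.7. In all 4 the WT mean lay nearer the DH-LMP2A mean than the kFRA mean (66.9 CPM for H2-DMa, 47.6 for H2-DMb2 and 29.6 for H2-Eb2), so kFRA was the genotype apart. H2-Eb2 and H2-DMb2 held in all 6 fits that left out a library. Cd74, the invariant chain, averaged 2607 ± 153 and 2963 ± 268 CPM and was not called (adjusted p = 0.636).

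Class I genes, which show cytosolic peptides to CD8 T cells, moved in both directions. On the list of class I, peptide loading and immunoproteasome genes 7 of 21 were lower in kFRA and 1 higher (38.1%, against 4.3% of all genes). The list's median was −0.06. H2-K1 read 2846, 2777 and 3294 CPM in kFRA and 6817, 6073 and 6666 in DH-LMP2A (log2 fold change −1.13, SE 0.217, adjusted p = 0.0177), and H2-D1 read 1851, 2175 and 2273 against 4809, 4224 and 4765 (−1.13, SE 0.198, adjusted p = 0.0111). WT stood at 2287 ± 421 and 1898 ± 242, with kFRA, so DH-LMP2A was high. The non-classical genes H2-T23 (453 ± 75.2 against 855 ± 66.8 CPM), H2-Q4 (229 ± 15.9 against 386 ± 18.9) and H2-M3 (63 ± 3.98 against 93.1 ± 6.32) had the same order. So did Tapbp, which bridges class I to the peptide transporter (290 ± 27.4 against 531 ± 51.4), and Erap1, which trims peptides (62.6 ± 17.3 against 124 ± 20.3). B2m, the common light chain of class I, read 2437, 2271 and 2101 CPM against 3302, 2870 and 3200, without overlap but not called (adjusted p = 0.205). None of the 7 lower calls on this list held in all 6 fits that left out a library: Tapbp held in 4, Erap1 in 3, H2-K1 and H2-D1 in 2, H2-T23 and H2-Q4 in 1 and H2-M3 in 0. With Xist as a covariate H2-Q4 and H2-M3 were not called.

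H2-Q7 went the other way, at 645, 820 and 636 CPM in kFRA and 233, 208 and 237 in DH-LMP2A, with WT between at 426 ± 103 (log2 fold change 1.63, SE 0.211, adjusted p = 0.00171). Its close copy H2-Q5 read 85.8, 99.1 and 75.8 against 372, 288 and 379 CPM (−2). Summed, the pair averaged 787 ± 115 CPM in kFRA and 573 ± 66 in DH-LMP2A, a log2 ratio of 0.46. H2-Q1 read 15.2, 16.1 and 13.4 CPM against 174, 167 and 171 (log2 fold change −3.52, SE 0.151, adjusted p = 7.61e-07), with WT at 12.5 ± 2.06. H2-Q2 averaged 4.69 ± 1.79 against 40.8 ± 5.62 CPM and H2-Q10, a secreted class I protein, 8.25 ± 3.53 against 55.4 ± 4.48. H2-T10 was higher in kFRA, 99.8 ± 17 against 40.5 ± 2.85. The genes H2-Q5, H2-Q10 and H2-T10 are outside the list and were chosen after their values were seen. Class I genes are near-identical to each other and differ between mouse strains, so counts on single members are uncertain.

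**Figure D3:**
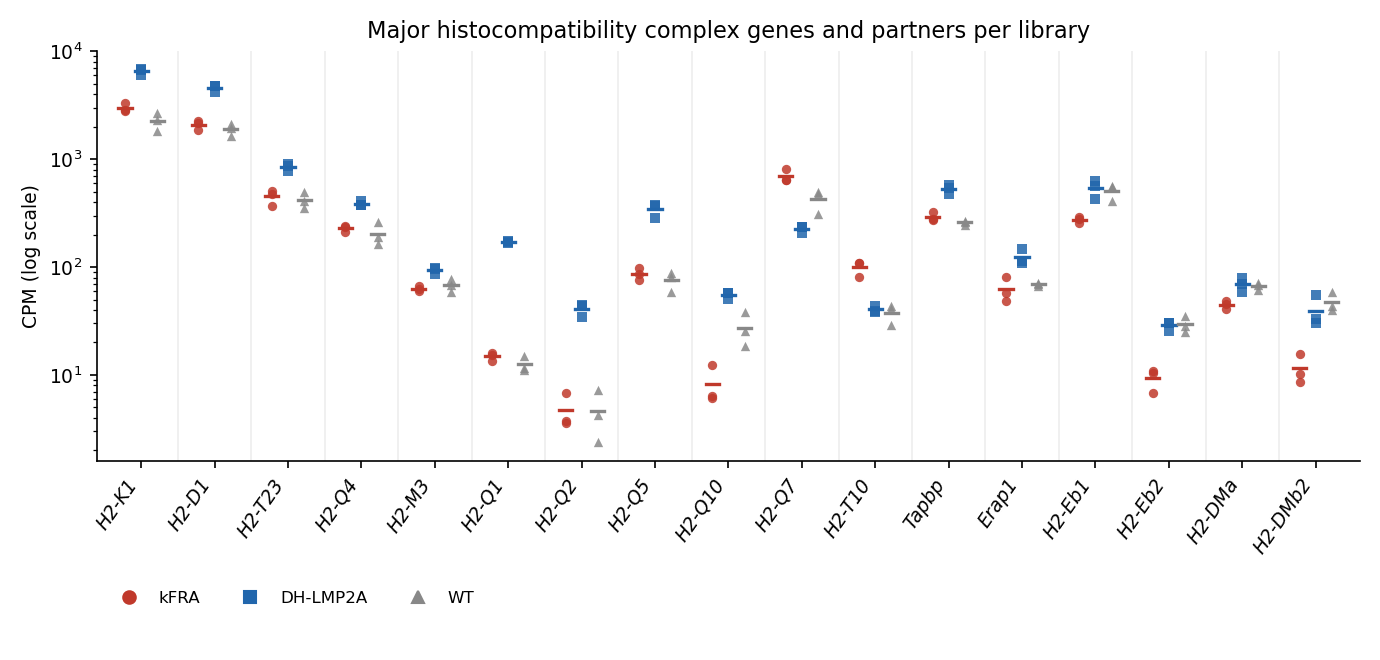
CPM on a log axis for 17 genes of the major histocompatibility complex and their partners, with each library a point and the group mean a bar. DH-LMP2A (blue squares) lies above kFRA (red circles) and WT (grey triangles) for H2-K1, H2-D1 and H2-Q1, kFRA is highest for H2-Q7 and H2-T10, and kFRA is lowest for the class II genes at the right.

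The promoters of H2-K1 and H2-Q7 are printed because these genes moved in opposite directions. Both hold the core of enhancer A (GGGATTCCC), which binds NF-kappaB factors, and letters of an interferon response element (TTTCACTTC). Each was searched on both strands and is shown in capitals, and the matches do not overlap. The sequences run from 250 bases before the gene's start to 50 after it, in the gene's direction, from RefSeq on GRCm38.p6, whose haplotype need not be that of these mice.
H2-K1, chr17:34000298-34000597, minus strand: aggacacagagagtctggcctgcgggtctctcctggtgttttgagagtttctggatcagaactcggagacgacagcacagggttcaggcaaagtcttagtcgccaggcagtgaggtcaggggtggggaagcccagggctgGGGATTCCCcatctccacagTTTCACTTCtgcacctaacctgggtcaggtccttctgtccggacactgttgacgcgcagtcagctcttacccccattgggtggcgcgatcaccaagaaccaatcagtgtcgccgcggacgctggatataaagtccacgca
H2-Q7, chr17:35438905-35439204, plus strand: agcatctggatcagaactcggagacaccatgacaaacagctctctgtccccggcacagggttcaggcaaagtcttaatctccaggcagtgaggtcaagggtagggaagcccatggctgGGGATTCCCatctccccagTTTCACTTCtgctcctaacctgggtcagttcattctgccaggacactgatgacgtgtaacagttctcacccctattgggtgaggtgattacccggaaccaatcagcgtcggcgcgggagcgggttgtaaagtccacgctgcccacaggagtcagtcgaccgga
Of 10 class I genes matched in the promoter table of 13 looked for, 4 held GGGATTCCC (H2-K1, H2-D1, H2-Q6 and H2-Q7) and 7 held TTTCACTTC (these 4, H2-Q4, H2-Q10 and H2-M3). Among all 32851 promoters of this length the shares were 0.353% and 0.505%. Class I genes are near-identical to each other, so their promoters are not independent draws, and the contrast was not tested. H2-K1 and H2-D1, called lower, and H2-Q7, called higher, held both motifs. H2-Q4, H2-Q10 and H2-M3, called lower, held TTTCACTTC alone, and H2-Q2 and H2-T23, also called lower, held neither.

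Genes of the secretory route were called one by one rather than as whole lists. Of ER chaperone and redox genes 1 of 23 was called (4.35%, against 4.3% of all genes): Txndc5, a disulfide isomerase, read 1309, 1365 and 1027 CPM in kFRA and 2782, 2441 and 2747 in DH-LMP2A (log2 fold change −1.11, SE 0.218, adjusted p = 0.0206), with WT at 2831 ± 553. Hspa5, the chaperone BiP, read 4698, 3409 and 4345 against 2581, 2008 and 2336 CPM, without overlap but not called (0.85, adjusted p = 0.111). In ER-associated degradation Syvn1, the ubiquitin ligase, was higher (661 ± 79.6 against 353 ± 25.5 CPM) and the lectin Erlec1 lower (110 ± 6.98 against 199 ± 29.5), of 20 tested (10%). In vesicle transport Preb, which activates COPII assembly, was higher (345 ± 96.1 against 182 ± 16.9) and Ergic1 lower (157 ± 32.3 against 327 ± 40), of 32 (6.25%). None of these 5 calls held in all 6 fits that left out a library: Ergic1 held in 3, Erlec1 in 2, and Txndc5, Syvn1 and Preb in 1.

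Some genes for enzymes of glycans and surface anchors were called lower in kFRA and others, such as Fut1, Gyltl1b and Gmds, higher. The lower ones given here were chosen after their values were seen. Man1a, a Golgi mannosidase, read 294, 313 and 299 CPM in kFRA and 551, 527 and 614 in DH-LMP2A (log2 fold change −0.9, SE 0.139, adjusted p = 0.00529), a call that held in all 6 fits that left out a library. Man2a1, the mannosidase that follows it, averaged 188 ± 75 against 403 ± 57 CPM. Rpn2, a subunit of the oligosaccharyltransferase, averaged 712 ± 55.1 against 1234 ± 143. Pigt and Pigs, subunits of the enzyme that attaches glycolipid anchors to proteins, averaged 144 ± 56.4 against 316 ± 44.1 and 41.8 ± 8.46 against 73.4 ± 6.28. For Man2a1, Rpn2 and Pigt the call held in 1 of those 6 fits.

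Of the lysosomal and endosomal genes that follow, Glb1, Scpep1 and Ctse were chosen in the same way. Glb1, the lysosomal beta-galactosidase, read 45.7, 57.9 and 54 CPM in kFRA and 190, 158 and 178 in DH-LMP2A, with WT at 90.4 ± 17.2 (log2 fold change −1.74, SE 0.168, adjusted p = 0.000223), and this call also held with the other-cell marker covariate. On the list of autophagy and lysosome genes 2 of 37 were called (5.41%, against 4.3% of all genes), both lower. They were the cathepsin gene Ctsz (390 ± 48.4 against 761 ± 80.1 CPM) and the membrane protein gene Lamp2 (84.2 ± 20.8 against 147 ± 22.5). Scpep1, a carboxypeptidase, averaged 213 ± 41.1 against 386 ± 47, and Ctse, an endosomal aspartic protease, 171 ± 33 against 361 ± 41.9. Glb1 held in all 6 fits that left out a library, Ctsz in 4, and Lamp2, Scpep1 and Ctse in 1. The list's median was −0.03, so its other members did not share a direction.

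Alpl, Cd36, Entpd1 and Cd38, which encode surface enzymes or receptors, were also chosen after their values were seen and were lower in kFRA, whereas the surface protein gene Plxdc1, given above, was higher. Alpl, tissue-nonspecific alkaline phosphatase, read 103, 97.8 and 99 CPM in kFRA and 218, 181 and 251 in DH-LMP2A, with WT at 55.1 ± 12 (log2 fold change −1.12, SE 0.182, adjusted p = 0.00739). Cd36, a fatty acid receptor, read 107, 208 and 93.5 against 587, 401 and 529 CPM, and WT was lowest at 15.4 ± 8.06. Entpd1, the ATP-cleaving enzyme CD39, averaged 227 ± 50.5 against 423 ± 71.5, and Cd38, an NAD-consuming enzyme of the B lineage, 35.9 ± 5.35 against 71.6 ± 7.57. The groups did not overlap in any of these 4, as in 598 of the 599 called genes and 25.1% of all genes tested. Alpl held in all 6 fits that left out a library, the others in 1 or 2.

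Genes of lipid synthesis that were called were lower in kFRA. Of 34 tested genes for cholesterol and fatty acid synthesis 4 were called, all lower (11.8%, against 4.3% of all genes, median −0.34). Scd1, which makes monounsaturated fatty acids, read 49, 38.5 and 31.7 CPM in kFRA and 134, 115 and 126 in DH-LMP2A, with WT between at 80.1 ± 32.7 (log2 fold change −1.65, SE 0.272, adjusted p = 0.00785). Acaca, which makes malonyl-CoA, averaged 10.7 ± 2.41 against 18.7 ± 2.34, and Nsdhl, a late enzyme of cholesterol synthesis, 13.5 ± 4.32 against 29.6 ± 2.3. Only Scd1 held in all 6 fits that left out a library.

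Targets of ATF4 and CHOP, the factors of the integrated stress response, leaned higher in kFRA, with 22 of 28 fold changes positive and 6 negative. The median was 0.42, and 0.04 to 0.52 over the fits that left out a library. By edgeR 3 were called higher and 1 lower (14.3%, against 4.3% of all genes). In that test 10 had an unadjusted p under 0.05, 8 of them higher, against 3061 of 13940 among all genes. DESeq2's Wald test called 5 higher and 1 lower, against 9.24% of all genes. Asns, asparagine synthetase, read 90.6, 41.4 and 108 CPM in kFRA and 25.8, 22.7 and 30.4 in DH-LMP2A, and Slc6a9, a glycine transporter, 17, 13.2 and 30.6 against 5.33, 5.85 and 9.15. Ddit3, which encodes CHOP, read 48.8, 33.3 and 47.2 against 17.6, 20.7 and 26.4. In all 3 kFRA replicate 2 was the lowest kFRA library. The groups did not overlap in these 3, as in 598 of the 599 called genes. Slc7a11, the cystine importer, was lower, 1.69 ± 0.294 against 6.32 ± 1.93 CPM. Atf4 read 504, 258 and 492 CPM against 264, 230 and 257 and was not called (adjusted p = 0.143). None of the 4 calls held in all 6 fits that left out a library.

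In other lists with a call, Bcl3, a nuclear partner of NF-kappaB, was higher in kFRA (19.7 ± 2.57 against 7.91 ± 1.95 CPM), the 1 call among 20 NF-kappaB genes. Of glycolysis genes Eno1 was higher (111 ± 7.87 against 74 ± 6.87 CPM) and Pdk1, which holds back pyruvate oxidation, lower (41.8 ± 0.977 against 64.6 ± 6.2), of 28. Il10 was the 1 call among 21 cytokine genes. Over all 34 lists, 784 distinct genes were tested, with 11 called higher and 36 lower (5.99%, against 4.3% of all genes). With the other-cell marker covariate no member of any list was called, in a fit that called 0.516% of all genes. That covariate is the mean of the T, NK, myeloid, granulocyte, erythroid and megakaryocyte lists. A loss of calls on those lists was thus built in.

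Cell division genes leaned lower in kFRA without a call. Of 38 genes of mitosis and cytokinesis 36 had a negative fold change (median −0.7); edgeR called 0, 9 had an unadjusted p under 0.05, all lower, and DESeq2's Wald test called 2 lower. Of 35 DNA replication genes 31 were negative (median −0.35). Among these 35 edgeR called 0, 8 had an unadjusted p under 0.05 and DESeq2 called 1 lower. Over all 13940 genes tested 3061 had an unadjusted p under 0.05, and DESeq2 called 9.24%. The counts of both lists were thus near or below the shares for genes in general. Mki67, a marker of cycling cells, read 115, 433 and 122 CPM in kFRA and 469, 447 and 313 in DH-LMP2A, so that kFRA replicate 2 stood among the DH-LMP2A libraries. Without that library 26 mitosis and 10 replication genes were called, all lower, in a fit that called 22.3% of all genes.

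Genes of energy supply leaned the other way. Of 47 nuclear genes of oxidative phosphorylation 40 had a positive fold change, with a median of 0.22 (0.05 when libraries were scaled by total counts alone, where the median over all genes was −0.13). None was called by edgeR or DESeq2, and 10 had an unadjusted p under 0.05, all higher. That count was near the share for genes in general, 3061 of 13940. In the fit without kFRA replicate 2, which called 22.3% of all genes, 22 were called higher. Among 35 proteasome subunits (median 0.15) both tools called 0, 3 had an unadjusted p under 0.05 and 11 were called higher without that library. Cytosolic ribosomal protein genes had a median of −0.09 over 48, with 0 calls by either tool and 4 at an unadjusted p under 0.05.

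Interferon-stimulated genes had a median of 0.14 over 35 tested, with 0 calls by edgeR, 3 at an unadjusted p under 0.05 and 2 by DESeq2, all higher. Of 22 immediate early genes edgeR called 0, 4 had an unadjusted p under 0.05 and DESeq2 called 2 higher. For 23 heat shock genes, 18 genes of the BCL2 family, 23 p53 targets and 12 mitochondrially encoded genes both tools called 0, and 3, 2, 2 and 0 had an unadjusted p under 0.05. Each of these unadjusted counts was below the share for genes in general, 3061 of 13940. These misses do not show that the genotypes are alike.

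**Figure D4:**
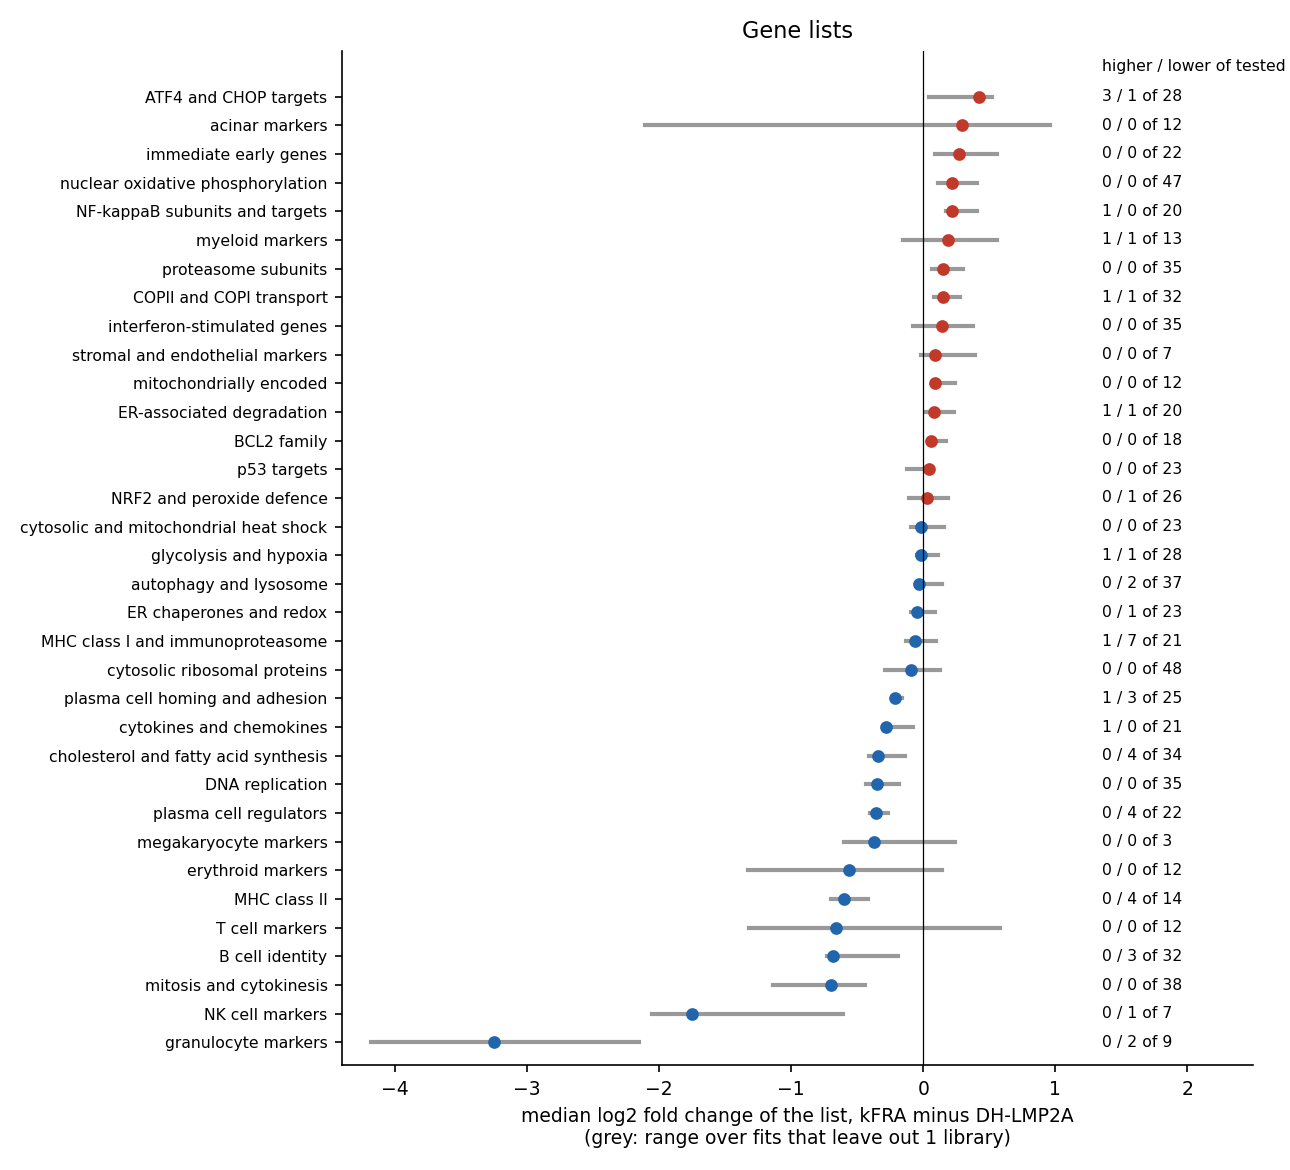
Median log2 fold change, kFRA minus DH-LMP2A, of each of 34 gene lists (points) with the range of that median over the fits that leave out 1 library (grey bars), and at the right the members called higher and lower of those tested. Mitosis, B cell identity and class II lists have negative medians in all of those fits, while acinar, erythroid and T cell marker lists change sign with the library left out.

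Copies of ferritin light chain were among the widest changes. Ftl2-ps, a processed pseudogene on chromosome 4, read 584, 577 and 650 CPM in kFRA and 0.254, 0.418 and 0.183 in DH-LMP2A (log2 fold change 11.02, SE 0.494, adjusted p = 1.01e-06), and Gm12164 on chromosome 11 read 240, 232 and 246 against 0.55, 0.325 and 0.137. WT was like DH-LMP2A in both, at 0.191 and 0.424 CPM. In all, 7 called genes matched Ftl1 best among coding genes, and all 7 were higher in kFRA. These included the hairpins Mir692-1, at 53.1, 46.9 and 53.6 CPM against 0.212, 0.0464 and 0.0458, and Mir692-2, at 143, 111 and 194 against 7.45, 9.74 and 5.72, which lies within Ftl2-ps.

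The hairpins are printed because their sequence shows the kinship with ferritin: the mature miR-692 sequence occurs letter for letter in an Ftl1 transcript, while the whole hairpins do not. Sequences are from RefSeq on GRCm38.p6, with capitals marking the seed in the mature form and the mature stretch in the hairpins.
mmu-miR-692: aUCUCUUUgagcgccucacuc
Mir692-1 hairpin, chr17:6895229-6895337, minus strand: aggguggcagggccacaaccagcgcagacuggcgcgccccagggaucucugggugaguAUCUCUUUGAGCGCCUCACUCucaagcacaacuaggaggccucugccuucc
Mir692-2 hairpin, chr4:125504749-125504857, plus strand: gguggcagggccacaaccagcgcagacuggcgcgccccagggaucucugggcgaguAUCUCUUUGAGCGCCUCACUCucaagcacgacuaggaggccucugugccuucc
The libraries were made from polyadenylated RNA of ordinary length, so counts on the hairpins are counts of longer transcripts and say nothing of the mature miRNA.

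Ftl1 itself, the light chain of the iron store, read 1046, 1059 and 1141 CPM in kFRA and 2315, 3060 and 1312 in DH-LMP2A and was not called (log2 fold change −1.04, adjusted p = 0.0788). Its 6 tested copies of at least 95% identity together averaged 1340 CPM in kFRA and 107 in DH-LMP2A. Among the 6, the hairpin entry Mir692-2 overlaps Ftl2-ps and the hairpin entry Gm22774 overlaps Gm15590. The 6 are therefore not all separate loci, and their sum is uncertain. The sum of Ftl1 and these copies was 2422 ± 131 CPM in kFRA and 2335 ± 915 in DH-LMP2A (SD, n = 3), a log2 ratio of 0.05, and the groups overlapped. The large single differences were thus absent from the sum.

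The same was measured across other families of a coding gene and its near-identical copies. Rpl26, a ribosomal protein gene, read 399, 307 and 507 CPM in kFRA and 105, 104 and 120 in DH-LMP2A (log2 fold change 1.88, adjusted p = 0.000316), while its copy Gm15772, 99.5% identical, read 54.3, 34.9 and 74.5 against 373, 336 and 403. The family sum was 478 ± 127 against 502 ± 43.8 CPM (log2 ratio −0.07). Rnps1, a splicing factor, and its copy Gm9825 moved in opposite directions and summed to 41.3 ± 5.27 against 44.3 ± 2.46 CPM. Rpl30 and 7 copies, 4 of them called lower, summed to 240 ± 47.3 against 241 ± 17.3. Glo1 kept its difference in the sum (38.1 ± 4.79 against 14.6 ± 2.05), as did Eno1b with Gm4735 (17 ± 1.19 against 45.2 ± 5.98).

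**Figure D5:**
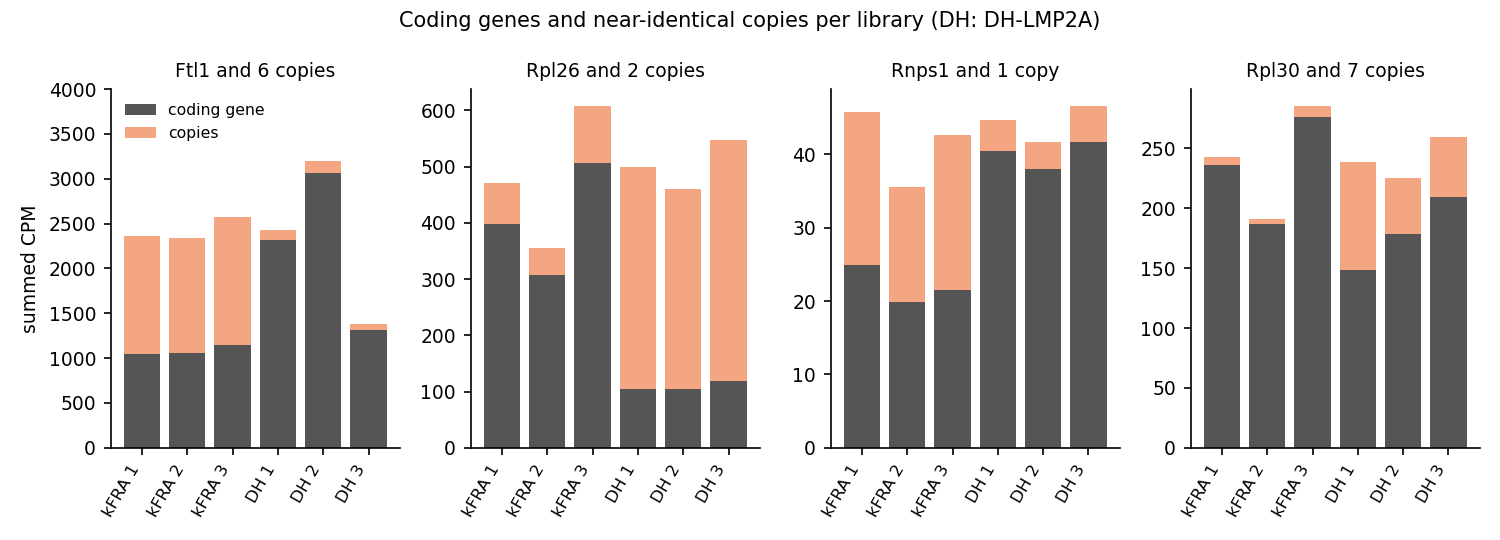
Stacked bars of CPM per library, from 0, for a coding gene (grey) and its near-identical tested copies (orange), in 3 kFRA and 3 DH-LMP2A libraries. The split between gene and copies differs by genotype for Ftl1, Rpl26, Rnps1 and Rpl30, while the bar heights of the genotypes overlap.

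Of 694 processed pseudogenes tested, 46 were called (6.63%, against 4.3% of all genes). Of 59 called pseudogenes of every class, 27 were higher in kFRA and 32 lower. Of the 59, 55 aligned over at least 80% of their length, with a median identity of 98%. Their median absolute log2 fold change was 2.9, against 0.38 for the matching coding genes, each taken once per copy. The copies were picked for being called and the coding genes were not, so a wider change in the copies was built into the choice. For 7 of the 54 copies whose match was tested, that coding gene was called. Of 30 families with a called copy, 22 had sums whose libraries overlapped between the genotypes, and the median absolute log2 ratio of the sums was 0.16. Over all genes tested the libraries did not overlap for 25.1%, so the count of overlapping sums was near the share for genes in general. Counts on any single member of these families are uncertain.

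Other transcripts outside ordinary coding genes differed as widely. BC018473, annotated as antisense on chromosome 11, read 99.9, 78.9 and 226 CPM in kFRA and had no count in any DH-LMP2A library, at least 969-fold higher than 3 counts are worth there, with WT at 0.0551 CPM. Gm10499, a class I-like pseudogene on chromosome 17, read 1.23, 1.24 and 1.13 CPM in kFRA and 250, 221 and 265 in DH-LMP2A (log2 fold change −7.67, SE 0.155, adjusted p = 1.61e-08), with WT at 1.74 ± 0.0274. Gm1966 on chromosome 7 averaged 0.719 ± 0.624 CPM in kFRA, 59.4 ± 29.6 in DH-LMP2A, and WT was highest at 135 ± 26.1. Thus each genotype in turn was the one apart: kFRA for BC018473 and Gm1966 and DH-LMP2A for Gm10499.

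The called genes were unevenly placed on the genome. Chromosome 17 held 78 calls among 742 genes tested (10.5%), followed by chromosomes 7 (6.46%), 4 (6.3%) and 6 (5.81%), against 4.3% overall. The 5 Mb from 35 to 40 Mb of chromosome 17 in GRCm38, where the H2-D, H2-Q and H2-T genes lie, held 22 calls among 85 tested (25.9%), 7 higher and 15 lower. The 10 intervals of this size with the most calls held 16.9% of the calls and 5.37% of the genes tested. They were picked by their number of calls, the interval on chromosome 17 among them. A share of calls above their share of genes was thus built into the choice and does not measure unevenness. Of 67 genes called in all 6 fits that left out a library and with either covariate, 11 lay on chromosome 17 (16.4%, against 5.32% of genes tested) and 36 were protein-coding. In the fit with the other-cell marker covariate the share called on chromosome 17 was 1.48% against 0.516% overall.

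Calls near the kappa and heavy-chain loci were counted, and the difference between the loci was not tested. Within 5 Mb of Igkc on chromosome 6, 5 of 51 genes outside the segments were called (9.8%), against 5.42% on the rest of the chromosome beyond 10 Mb. They included Cd8b1, a chain of the CD8 coreceptor, lower in kFRA (13.3 ± 3.22 against 38.8 ± 10.1 CPM, with WT at 0.734 ± 0.153) and Tmem150a, higher (30.3 ± 3.07 against 15.5 ± 0.243). Gm43291, lower in kFRA (63.8 ± 14.7 against 297 ± 36.5), spans Igkc itself, so its counts are uncertain. Within 5 Mb of Ighm on chromosome 12 only 1 of 72 was called, Ckb, a creatine kinase, higher in kFRA (38.2 ± 2.87 against 21.2 ± 5.59 CPM), which is 1.39% against 4.44% on the rest of that chromosome.

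The WT mean was set beside the kFRA and DH-LMP2A means of the called genes. Of the 243 genes higher in kFRA, WT lay between both means for 137, below both for 63 and above both for 43, and it was nearer DH-LMP2A for 156. Of the 356 lower in kFRA, WT lay between for 168, below both for 102 and above both for 86, and it was nearer kFRA for 204. WT is 1 reference for both, and these placings were neither tested nor compared with genes that were not called.

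Markers of other spleen cells differed most for granulocytes. All 9 tested granulocyte markers had a negative fold change (median −3.25), and S100a8 and Retnlg were called lower in kFRA. S100a8, a calcium-binding protein of neutrophils, read 1.98, 1.09 and 3.7 CPM in kFRA and 60.3, 49.1 and 4.99 in DH-LMP2A, so DH-LMP2A replicate 3 stood with kFRA. The WT mean of S100a8 was above both, at 144 ± 103 CPM. The granulocyte list summed to 22 to 42.6 CPM in kFRA and 35.7 to 370 in DH-LMP2A. Klrk1, an NK cell receptor, averaged 2.99 ± 1.49 against 10.1 ± 2.48 CPM, and all 7 NK markers were negative. Among myeloid markers Itgam was lower (2.76 ± 1.26 against 14.5 ± 8.31) and Siglech, a lectin of plasmacytoid dendritic cells, higher (7.3 ± 3.92 against 1.93 ± 0.244), of 13 whose median was 0.19. Of the 6 fits that left out a library, S100a8, Retnlg, Klrk1 and Itgam were called in 2 and Siglech in 1. With Xist as a covariate none of these genes was called. Erythroid markers summed to 1184 to 2826 CPM in kFRA and 2598 to 13680 in DH-LMP2A, with 0 of 12 called by edgeR or DESeq2 and 1 at an unadjusted p under 0.05. No marker gene in the table was at 0 in all 6 libraries, and the part of these cells in the differences above was not tested.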

How the data were processed

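RNA-seq libraries of 3 kFRA, 3 DH-LMP2A and 3 WT spleens were analysed, grouped by the genotype in the labels. The authors deposited raw counts per gene, with exon coordinates per the file headers; STAR 2.4.0a, featureCounts of Subread 1.5.0-p3, DESeq2 and build GRCm38 are named in the submitters' processing notes, and the strand setting is not given in the sources used here. By GENCODE M21, 178 of the 599 called genes share exonic bases with a neighbour, and their values are uncertain. At these depths 3 counts correspond to 0.139 to 0.194 CPM before scaling; such floors cover counting error only.

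Counts were tested with edgeR 4.0.16 in R 4.3.3: filterByExpr by group, TMM scaling, a quasi-likelihood F test of kFRA minus DH-LMP2A in a fit of all 9 libraries, 2-sided, and Benjamini-Hochberg adjustment over all 14199 genes tested (259 in immunoglobulin segments). Levels are CPM scaled by TMM, given as mean ± SD (n = 3), and SE is that of the log2 fold change. Replicates are different mice, per the labels. No pair agreed within sampling noise (chi-square per degree of freedom 17.3 to 164). The fit was tested on simulated data.

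The genes named are the 15 highest and 15 lowest fold changes of called genes with a mean of at least 5 CPM and no overlap, 3 of each kind among pseudogenes, antisense and predicted genes, and called members of 34 gene lists; others are said to be chosen after their values were seen. Some genes that this rule gives are not reported here. Members and lists were chosen with earlier results of these data known. Copies were matched to GENCODE transcripts with BLAST 2.17.0. Alternatives were DESeq2 1.42.0 and its size factors, library size alone, other filters, no immunoglobulin genes, a replicate block, 6 libraries, other thresholds, covariates for Xist and other-cell markers, and leaving out each library.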

Additional observations from a re-analysis of the deposited data

How the results depend on the processing

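The count of 599 called genes was 602 with DESeq2's size factors, 686 with no filter, 547 without immunoglobulin segments, 436 with the Xist covariate and 417 at 2-fold or more. It was 373 with library size alone, where 33.5% of calls were higher in kFRA against 40.6% and the median log2 fold change of all genes moved to −0.13. It was 395 at a mean of at least 5 CPM, 388 with only the 6 libraries, 200 at an adjusted p under 0.01, 1288 with DESeq2's Wald test and 72 with the other-cell marker covariate. Leaving out 1 library gave 242 to 3184: 242, 271 and 412 without DH-LMP2A replicates 1, 2 and 3, and 244, 3184 and 304 without kFRA replicates 1, 2 and 3. Of the 599 genes 584 remained without kFRA replicate 2. The replicate block gave 570; same-numbered libraries correlated at −0.07, 0.21 and 0.13 in their deviations, so the numbers were not taken to pair the mice. None of the 120 genes followed individually, 114 of them called, changed direction in any alternative. The causes of these shifts were not tested. With 3 libraries a side and a marker covariate that separates the genotypes, its count cannot tell genotype and other cells apart, and counts near 3 limit the lowest levels.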

Other observations

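Among the 67 genes called in all 6 fits that left out a library and with either covariate, some coding genes were not described above and were chosen after their values were seen. Lower in kFRA were Eya1, a transcriptional cofactor and phosphatase (log2 fold change −4.53), Clec1b, a platelet and myeloid lectin (−4.26), the proton pump subunit gene Atp6v0c (−1.25) and the lysosomal amino acid exporter gene Pqlc2 (−1.22). Higher in kFRA were Fblim1, a cytoskeletal adaptor (7.53), Vill, a villin-like protein (6.12), Slc35f3 (3.44), Adcy4, an adenylyl cyclase (2.98), and Cep85, a centrosomal protein (2.14).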
